A study of Mus musculus with 6 samples.

Results

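Mitochondrial ribosomal protein genes were followed in mouse CD4+CD8+ double-positive (DP) thymocytes with and without Flvcr. They were taken as all genes on the array whose current symbol starts with Mrpl (large subunit) or Mrps (small subunit) followed by a number. Of 76 such genes with 132 probes, 71 had a probe detected (detection p under 0.05) on at least 3 of 6 arrays, 44 of the large and 27 of the small subunit, among 8808 named genes tested in all. Each gene was represented by its brightest kept probe. Every one of the 71 probes was detected on all 6 arrays, so none entered through 1 group alone. The other 5 genes, Mrpl19, Mrpl21, Mrpl32, Mrpl45 and Mrps14, had no probe detected on more than 1 array and were not tested, and Mrpl41 and Mrps36 were not analysed here because no probe carried those symbols.

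The arrays held total RNA of sort-purified DP thymocytes from C57BL/6-background mice. There were 3 Flvcr+/+ samples (control) and 3 Flvcr-/- samples (Flvcr-deleted), each on 1 Illumina bead array. Flvcr1 encodes a heme exporter, and the comparison asks how thymocyte transcripts differ without it. Ages, the agent or promoter that deleted the gene, and whether animals were pooled are not given in the sources used here, and neither is whether each sample of a group is a separate animal. The p-values therefore cover the spread between these 6 samples, which may be technical.

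Mitochondria carry their own ribosome, which translates only the few respiratory chain subunits encoded in mitochondrial DNA. Its RNA is mitochondrial, but all its proteins are encoded by nuclear genes, made in the cytosol and imported, so the large and small subunits are built from scattered nuclear genes that must be supplied together. Some of these proteins descend from bacterial ribosomal proteins and others are found only in mitochondria. Among the subunits it makes are those of the cytochrome complexes, which carry heme.

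Of 45281 probes the arrays detected 15307 to 15792, and pairs of arrays correlated at 0.977 to 0.986 inside a group and 0.978 to 0.984 across groups. Flvcr1 itself read 11.07 ± 0.18 on the control arrays and 10.16 ± 0.27 on the deleted arrays (log2 signal, SD, n = 3 each), with no overlap (limma adjusted p = 0.0317), but whether its probe lies in the deleted stretch is not stated. Of 12 DP genes listed, 10 were detected, including Cd4, Cd8b1, Rag1 and Rag2, while Cd8a was detected on 0 arrays. Their median log2 fold change was -0.06. Markers of other cells were mostly not measured, with 5 of 8 dendritic, 2 of 7 B cell, 2 of 8 macrophage, 3 of 7 erythroid, 0 of 7 granulocyte and 2 of 8 stromal genes tested. The 5 dendritic genes all read lower in Flvcr-deleted cells (median -0.12), and 0 passed an adjusted p of 0.05. Cd74 stood at -1.13 (SE 0.315), with no overlap, and H2-Eb1 at -0.66 (SE 0.296). Both were under an unadjusted p of 0.05 in limma's fit (40%, against 4.63% of all genes). Siglech, H2-Ab1 and Cst3 lay between -0.12 and -0.07. The 6 tested of 8 mature thymocyte genes, 5 lower and 1 higher, had a median of -0.52. Among them Nkg7 and Il7r were detected on 3 control and 0 deleted arrays. The filter kept Nkg7 and Il7r through the controls alone. The other lower genes were also detected on deleted arrays. Klf2, detected on all 6 arrays, stood at -0.67 and Cd69 at -0.26. Ccr7, detected on 3 control arrays and 1 deleted array, stood at -0.76. In limma's fit 3 of the 6 were lower and 1 higher at an unadjusted p under 0.05 (66.7%, against 4.63% of all genes), and 0 passed an adjusted p of 0.05. H2-Q2 was the higher one, at 0.55 (SE 0.178). Of the 2 B cell genes, the immunoglobulin gene Igkc stood at -3.36 (limma adjusted p = 5.09e-07) and Cd79b, of the B cell receptor, at 0.26 (SE 0.171). The globin genes set arrays apart within a group. Hba-a1 read 11.97, 9.83 and 10.20 for control and 7.79, 11.89 and 12.41 for deleted, and Hbb-b1 likewise was lowest on deleted replicate 1, at 7.86. The part of these cells in the results below was not tested. In bulk RNA, fewer cells of a type and less RNA per cell cannot be told apart.

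Transcripts of the mitochondrial ribosome stood at nearly the same level in both groups, relative to other transcripts. Quantile normalization gives all arrays the same distribution, so a shift of all transcripts together would not be seen. The median log2 fold change (Flvcr-deleted minus control) was 0.03 over the 71 genes, 0.04 over the 44 large subunit genes and 0.01 over the 27 small subunit genes, against 0.01 over all 8808 genes. These signs were not stable. The small subunit median was -0.003 with scaling to a common median, and the median of the 71 genes fell below 0 without control replicate 1, control replicate 2 or deleted replicate 3. No gene of either subunit passed an adjusted p of 0.05 in limma's fit over all probes (0 of 71, against 0.148% of all genes, 0.0227% higher and 0.125% lower), and the adjusted p was 0.9997 for each of them. At an unadjusted p under 0.05 there was 1 gene of 71 (1.41%), lower in Flvcr-deleted cells, against 4.63% of all genes, 2.6% higher and 2.03% lower.

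**Figure D1:**
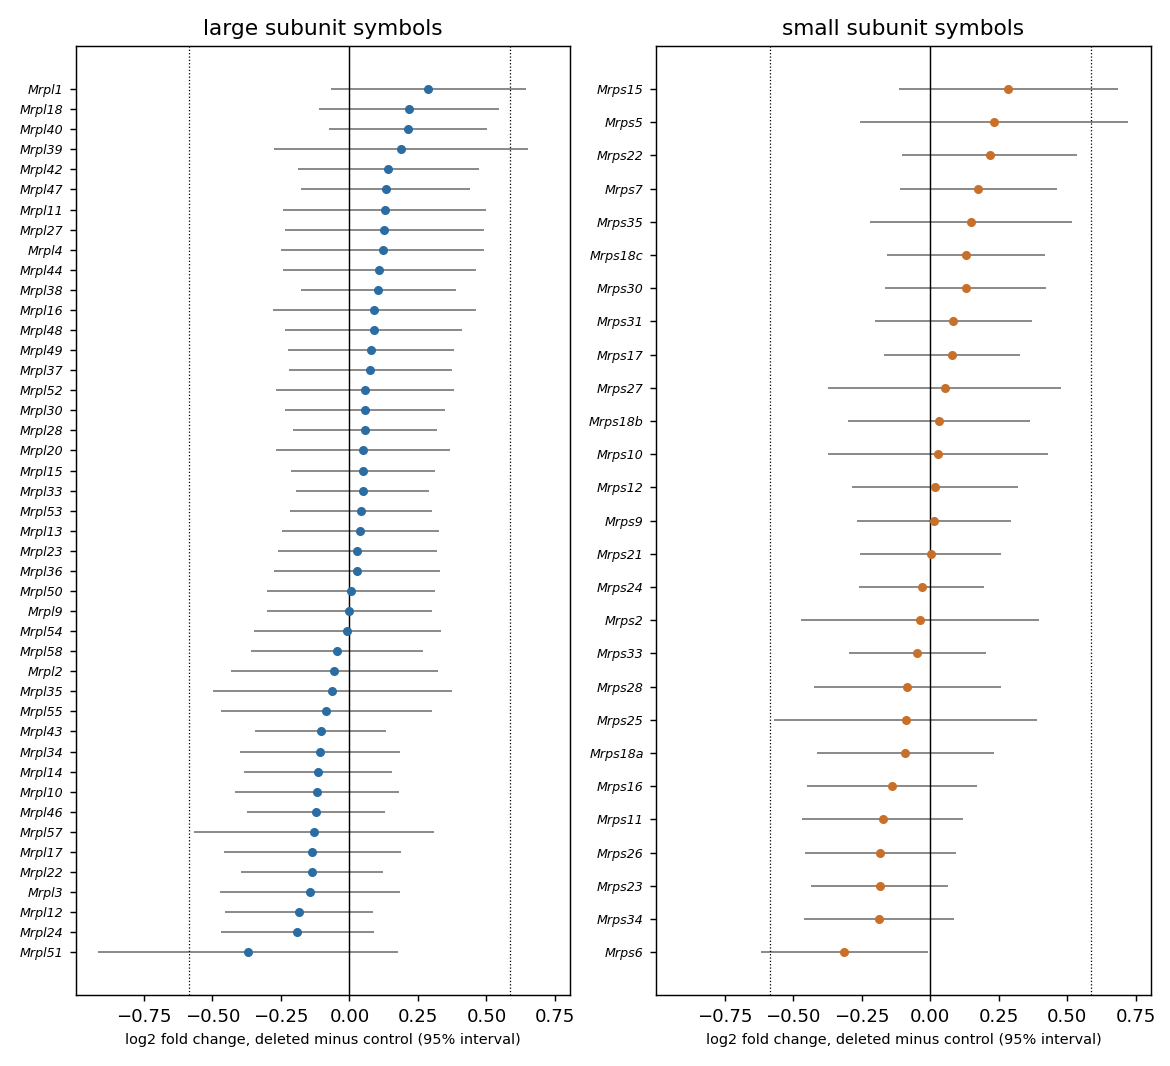
Log2 fold change of each gene (horizontal axis, Flvcr-deleted minus control, points) with its 95% interval (lines), large subunit symbols left and small subunit symbols right. Dotted lines mark a 1.5-fold difference, which the interval of 6 of 71 genes crosses, and only the interval of Mrps6 leaves out 0.

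The intervals bounded how large a difference could have gone unseen in the probe used for each gene. They do not cover further probes of a gene. The offset added in processing makes differences of dim probes too small, so the bounds are less sure for dim genes. Estimates ran from -0.37 for Mrpl51 to 0.29 for Mrpl1, and all 71 lay within 1.5-fold. The 95% intervals, taken gene by gene and not widened for the number of genes, had a median half-width of 0.30 on the log2 scale. All 71 stayed inside a 2-fold difference and 65 inside 1.5-fold. The 6 genes whose intervals reached beyond 1.5-fold were Mrpl1, Mrpl39, Mrpl51, Mrps5, Mrps6 and Mrps15. The lowest bound was -0.92, for Mrpl51, whose probe gave intensities of 177.6 to 215.4. The other kept Mrpl51 probe, whose interval is not counted here, read 0.58.

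Among large subunit genes, Mrpl1 had the highest estimate. Its protein forms the mobile stalk beside the exit site for spent tRNA. Its signal was 9.48, 9.80 and 10.03 on the 3 control arrays (replicates 1, 2 and 3) and 10.05, 10.24 and 9.89 on the deleted replicates in the same order (log2). Deleted replicates 1 and 2 lay above all controls and deleted replicate 3 among them, with control replicate 1 low. The log2 fold change was 0.29 (SE 0.167), and a second kept Mrpl1 probe read -0.20. The mean of both probes gave 0.04, and the fit without control replicate 1 gave 0.14. Mrpl18, a protein of the central protuberance, stood at 10.41 ± 0.21 on the control arrays and 10.63 ± 0.22 on the deleted arrays (SD, n = 3 each), with overlapping groups and a difference of 0.22.

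Mrpl40, a mitochondria-specific protein, was 1 of 2 genes with every Flvcr-deleted array above every control array. It read 10.70, 10.73 and 10.74 on the control arrays and 10.87, 10.78 and 11.17 on the deleted arrays. The controls were tight and Flvcr-deleted replicate 3 was the high point. The log2 fold change was 0.21 (SE 0.134). Mrpl39, another mitochondria-specific protein, stood at 0.19 (SE 0.217) on a dim probe.

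At the other end, Mrpl51, also mitochondria-specific, read 6.57, 6.09 and 6.85 on the control arrays and 6.10, 6.27 and 6.04 on the deleted arrays. The groups overlapped because control replicate 2 was as low as the Flvcr-deleted arrays. The log2 fold change was -0.37 (SE 0.256), while the other kept Mrpl51 probe read 0.58, so the probes disagreed in direction and their mean turned the sign, to 0.11. Mrpl24, at the mouth of the exit tunnel, and Mrpl12, of the stalk that recruits translation factors, both stood at -0.19 (SE 0.131 and 0.126), and Mrpl3, next to the catalytic centre, at -0.14 (SE 0.154). The Mrpl12 probe read 11.11, 11.44 and 11.34 on the control arrays and 11.17, 11.06 and 11.11 on the deleted arrays, so control replicate 1 lay among the Flvcr-deleted values.

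Of genes whose groups did not overlap there were 4 of 71, or 5.63%, against 9.59% of all genes tested. There were 2 higher (5.23% of all genes) and 2 lower (4.36% of all genes). The lower ones were Mrpl46 and Mrpl57, both mitochondria-specific large subunit proteins. Mrpl46 read 11.23, 11.15 and 11.25 on the control arrays and 11.15, 11.10 and 11.02 on the deleted arrays, and its log2 fold change was -0.12 (SE 0.118). Mrpl57 read 7.05, 6.98 and 6.96 on the control arrays and 6.80, 6.94 and 6.86 on the deleted arrays, and its log2 fold change was -0.13 (SE 0.206). In both genes the nearest arrays of the 2 groups lay within a few hundredths of a log2 unit of each other.

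Of the small subunit, Mrps6 had the smallest p of all 71 genes. Its bacterial counterpart sits on the platform of the small subunit. It read 10.69, 10.62 and 10.36 on the 3 control arrays (replicates 1, 2 and 3) and 10.16, 10.39 and 10.18 on the deleted replicates in the same order. Flvcr-deleted replicate 2 lay above control replicate 3, so the groups overlapped. The log2 fold change was -0.31 (SE 0.143, 1.24-fold lower, 95% interval -0.62 to -0.01), with an unadjusted p of 0.0442 and an adjusted p of 0.9997 in limma's fit. The unadjusted p stayed under 0.05 without control replicate 3 or Flvcr-deleted replicate 2 and not without any other array.

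Mrps15, whose bacterial counterpart binds the small subunit RNA early in assembly, was the other gene with all Flvcr-deleted arrays above control. It read 7.995, 7.58 and 7.82 on the control arrays and 8.06, 8.04 and 8.16 on the deleted arrays. The Flvcr-deleted arrays were tight and control replicate 1 came close to them. The log2 fold change was 0.28 (SE 0.187), and a second kept probe read -0.19, which brought the mean of both to 0.05. Mrps5, which lies near the mRNA entrance, had the widest spread among replicates, at 8.79 ± 0.48 on the control arrays and 9.03 ± 0.29 on the deleted arrays (SD, n = 3 each). The log2 fold change was 0.23 (SE 0.229) and was 0.005 without control replicate 1.

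**Figure D2:**
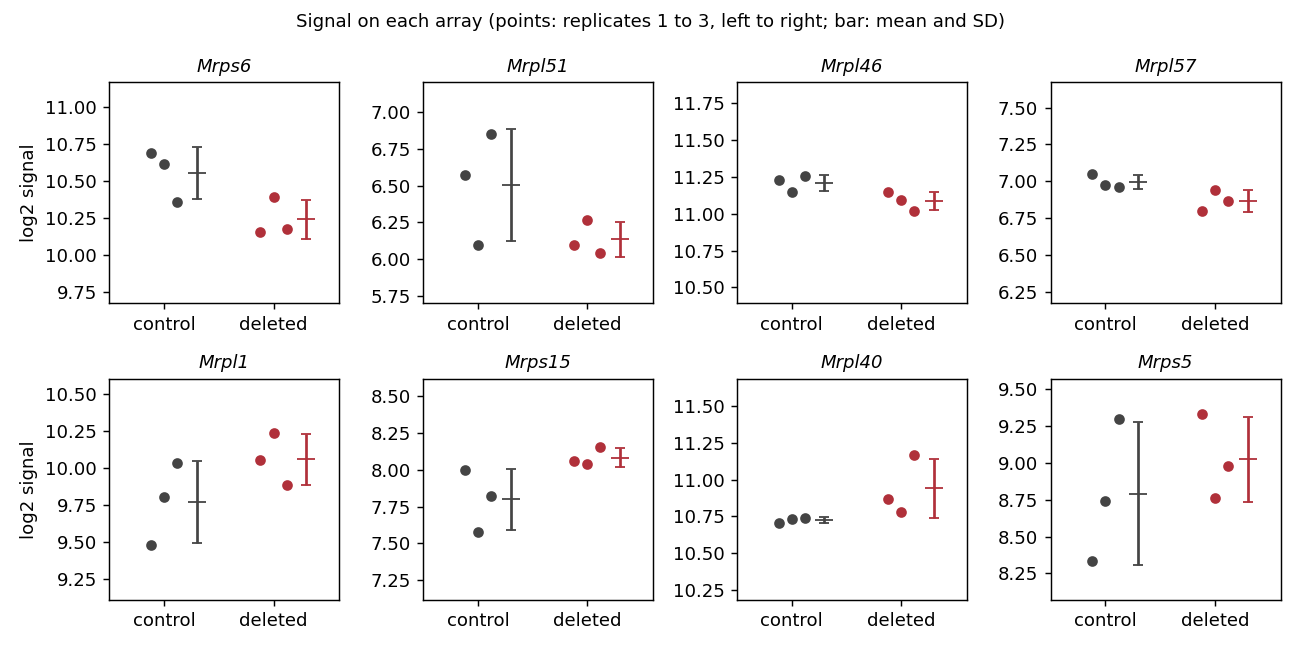
Log2 signal of 8 genes on each array, control in grey and Flvcr-deleted in red, with replicates 1 to 3 from left to right and the mean ± SD beside them, every panel spanning the same 1.5 log2 units. Mrpl40 and Mrps15 show all Flvcr-deleted points above control, Mrpl46 and Mrpl57 all below, and the other 4 overlap.

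Further small subunit genes at the ends of the ranking also overlapped or lay within the spread. Mrps22, a mitochondria-specific protein, stood at 0.22 (SE 0.149) and Mrps7, of the subunit head, at 0.17 (SE 0.134). Mrps34, Mrps23 and Mrps26, all mitochondria-specific, stood at -0.19 (SE 0.128), -0.18 (SE 0.117) and -0.18 (SE 0.129). The Mrps34 probe read 11.39, 11.36 and 11.32 on the control arrays and 11.34, 10.96 and 11.22 on the deleted arrays, so Flvcr-deleted replicate 2 was the low point. A second kept probe read -0.19 for Mrps26, -0.006 for Mrps23 and 0.14 for Mrps7.

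The genes with the brightest probes also lay near 0. In the large subunit these were Mrpl33 (log2 fold change 0.05, SE 0.113), Mrpl23 (0.03, SE 0.136), Mrpl43 (-0.11, SE 0.113) and Mrpl28 (0.06, SE 0.123). In the small subunit they were Mrps33 (-0.05, SE 0.117), Mrps24 (-0.03, SE 0.106), Mrps17 (0.08, SE 0.115) and Mrps12 (0.02, SE 0.141), the last of these a decoding-site protein. Among the dimmest, Mrps27 stood at 0.05 (SE 0.199) and Mrps2 at -0.04 (SE 0.204). The signs of Mrpl23, Mrpl28, Mrpl33, Mrps2, Mrps12, Mrps24, Mrps27 and Mrps33 each turned under at least 1 alternative, as did those of Mrpl3, Mrpl51, Mrps18a and Mrps18b among the genes described here by rank or family.

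The paralogs of bacterial S18 offer a comparison within 1 family, since mammals carry Mrps18a, Mrps18b and Mrps18c. Mrps18c, the counterpart in the bacterial position, stood at 0.13 (SE 0.135), Mrps18b at 0.03 (SE 0.155) and Mrps18a at -0.09 (SE 0.152). Their 95% intervals ran from -0.16 to 0.42, from -0.30 to 0.36 and from -0.41 to 0.23. Ribosome structures place the Mrps18a and Mrps30 proteins in the large subunit in spite of their symbols. Counting both there gave 46 large and 25 small subunit genes with the same medians, 0.04 and 0.01.

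Sorted by origin and place, the medians stayed between -0.14, at the tunnel exit, and 0.07, near the catalytic centre, for groups of more than 1 gene. Of 27 large subunit genes with a bacterial counterpart 15 read higher (median 0.03), and of 17 mitochondria-specific ones 11 did (median 0.06). In the small subunit, taken by symbol, these counts were 9 of 15 (median 0.01) and 6 of 12 (median -0.01). The 12 include Mrps18a and Mrps30, and also Mrps18b, since only Mrps18c was counted as the counterpart of bacterial S18. Among all 71 genes 41 read higher (57.7%), against 51.8% of all genes. The 3 genes of the factor-binding stalk, Mrpl10, Mrpl11 and Mrpl12, stood at -0.12, 0.13 and -0.19. Of 4 genes listed for the tunnel exit, Mrpl17, Mrpl22 and Mrpl24 read between -0.19 and -0.13 and Mrpl23 read 0.03. The sites take in only some of the genes. Mrpl47, a large subunit gene with a bacterial counterpart, was given no site and read 0.13. The 6 genes near the catalytic centre had a median of 0.07, between -0.14 for Mrpl3 and 0.13 for Mrpl27.

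Arrays of the same genotype differed more in these genes than the genotypes did. Relative to each gene's control mean, the median of the 71 genes was -0.05, -0.05 and 0.11 on the 3 control arrays (replicates 1, 2 and 3) and 0.03, -0.06 and 0.05 on the deleted replicates in the same order (log2). Control replicate 3 was the highest array and Flvcr-deleted replicate 2 the lowest, so the highest array was a control and the lowest a deleted one, with the others between them. The span over arrays was 0.17, while the group means of these medians, 0.00 ± 0.09 on the control arrays and 0.01 ± 0.06 on the deleted arrays (SD, n = 3 each), differed by 0.005. Control replicate 3 was the highest control for 45 of 71 genes, 31 of 44 in the large and 14 of 27 in the small subunit. Flvcr-deleted replicate 2 was the lowest of its group for 36. The range among the 3 controls exceeded the difference between group means for 63 of 71 genes. A range of single arrays is a wider measure than a difference of means, and the share over all genes was not counted. This count therefore shows nothing particular to these genes.

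**Figure D3:**
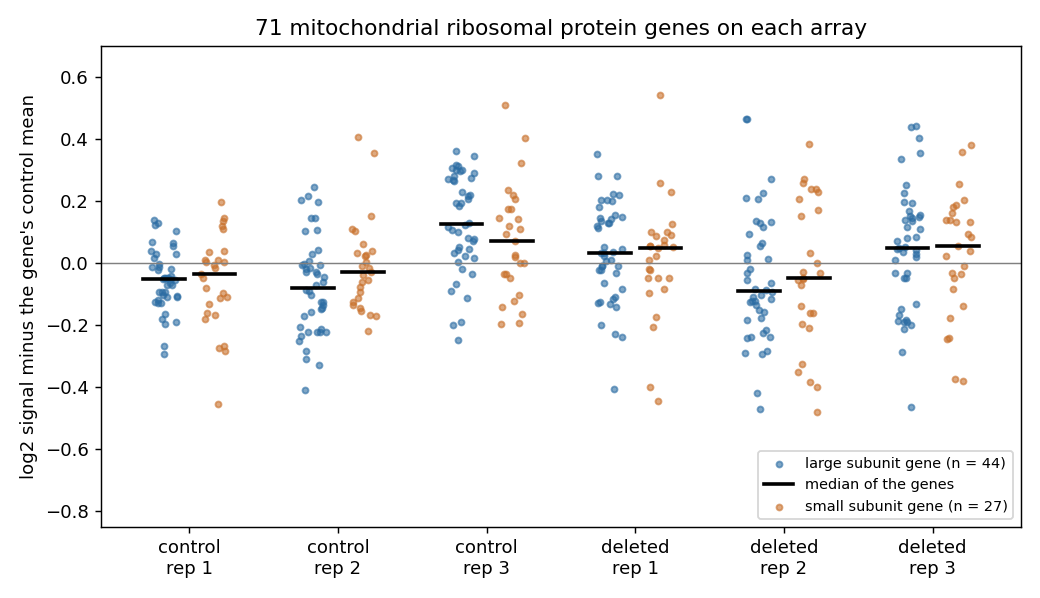
Deviation of each gene from its own control mean (vertical axis, log2) on the 6 arrays, large subunit genes in blue, small subunit genes in orange, black bars their medians. Control replicate 3 is shifted up (medians 0.13 and 0.07) and Flvcr-deleted replicate 2 down (-0.09 and -0.05), within overlapping clouds.

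The 2 subunits shifted the same way on each array. The large subunit medians were -0.05, -0.08 and 0.13 on control and 0.03, -0.09 and 0.05 on the deleted replicates in the same order. The small subunit medians were -0.04, -0.03 and 0.07 on control and 0.05, -0.05 and 0.06 on the deleted replicates. Large minus small was -0.02, -0.05 and 0.05 on the control arrays and -0.02, -0.04 and -0.01 on the deleted arrays, so the groups overlapped in the balance of subunits too. Once group means were removed, the median correlation over the 2485 pairs of these genes was 0.16, against 0.003 over all gene pairs, across 6 arrays that the pairs share. The pairs were not matched for brightness, so the higher value is not shown to be particular to these genes. The mean level of 13 tested mitotic genes was 9.89, 9.17 and 10.39 on control and 9.45, 10.29 and 10.13 on the deleted replicates in the same order, so control replicate 3 was high in both sets, and deleted replicate 2 was high there and low in the ribosomal genes. The part of proliferation in these shifts was not tested.

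Where a gene had further kept probes, they mostly repeated the small values. There were 38 further probes in 26 genes, none at an unadjusted p under 0.05 in limma's fit. Of 22 with a mean log2 signal of 8 or more, 16 had the sign of the probe used, and the median absolute difference from it was 0.08. Of 16 dimmer probes 4 had the same sign, with a median absolute difference of 0.22. Mrpl15, a large subunit protein, had 6 kept probes, whose log2 fold changes ran from -0.21 to 0.13. Where each probe lies in its transcript is not known here.

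Upstream sequence gave a view of what these genes share that does not rest on the arrays. RefSeq promoter windows of 300 bases (build GRCm38.p6, 250 before to 50 after the annotated start) matched 63 of the 71 genes, with 69 windows. ETS-family factors such as GABP (which bind CCGGAAG), NRF1 (GCGC and TGCGC joined by any base) and YY1 (AAGATGGCG) are known regulators of nuclear genes for mitochondria, and these letters were searched on both strands. CCGGAAG was found in 36.2% of the windows of these genes, 19.5% of 9094 windows of all tested genes and 8.86% of all 32851 windows. The NRF1 letters were in 15.9%, 10.9% and 4.6%, and the YY1 letters in 11.6%, 3.3% and 1.4%. A TATA box (TATAAA) was in 7.25%, 6.95% and 13.6%, an E-box (CACGTG) in 10.1%, 10.4% and 7.15%, and a CREB site (TGACGTCA) in 2.9%, 3.22% and 1.79%. Median GC content was 58.7%, 60.7% and 52.7%. In no window did matches of the ETS, NRF1 and YY1 letters overlap each other.

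**Figure D4:**
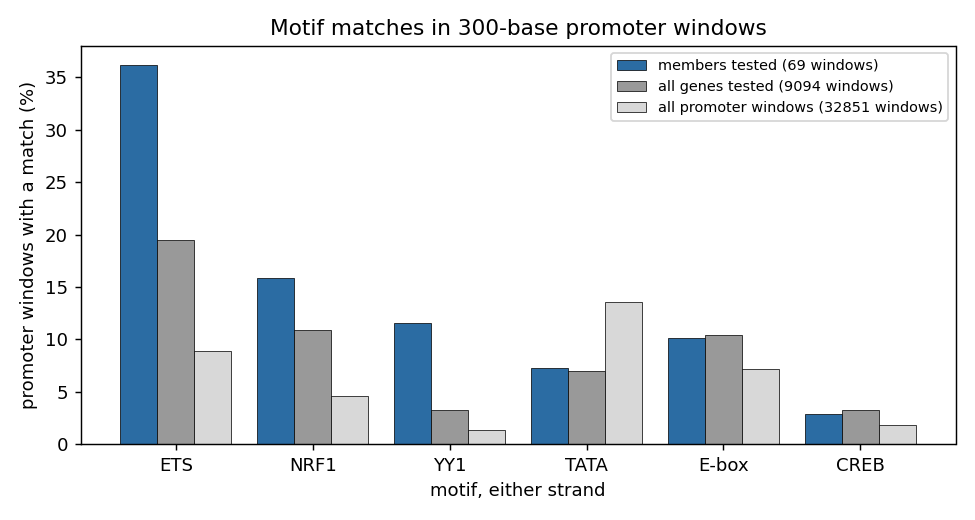
Share of promoter windows (vertical axis, percent) that hold each motif on either strand, for mitochondrial ribosomal protein genes (blue), all genes tested (dark grey) and all RefSeq windows (light grey). The blue bars are the highest for ETS (36.2%), NRF1 (15.9%) and YY1 (11.6%) and are close to the dark grey ones for TATA, E-box and CREB.

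The stretches below lie upstream of the start, read 5′ to 3′ along the gene's strand, with matches in capitals. Mrpl43, Mrps22 and Mrpl51 show the ETS letters and span a range of array values, Mrpl12 and Mrpl57 show the NRF1 letters, Mrps11 shows the short gap it shares with Mrpl46, and Mrps6, the gene with the smallest p, holds none of the 3 in the stretch shown. They lie at chr19:45006443-45006557 (minus strand), chr9:98601680-98601799 (minus), chr6:125192080-125192199 (plus), chr11:120484517-120484636 (plus), chr14:57826164-57826238 (plus), chr7:78783090-78783130 (plus) and chr16:92058216-92058335 (plus), in the order listed.
Mrpl43: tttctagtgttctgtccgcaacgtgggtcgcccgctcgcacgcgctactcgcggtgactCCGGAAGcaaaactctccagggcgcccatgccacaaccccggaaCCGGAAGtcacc
Mrps22: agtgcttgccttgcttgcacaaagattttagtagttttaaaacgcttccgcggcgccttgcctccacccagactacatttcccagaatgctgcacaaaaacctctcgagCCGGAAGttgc
Mrpl51: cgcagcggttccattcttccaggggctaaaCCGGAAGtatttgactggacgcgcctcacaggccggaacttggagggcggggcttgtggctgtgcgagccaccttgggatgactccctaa
Mrpl12: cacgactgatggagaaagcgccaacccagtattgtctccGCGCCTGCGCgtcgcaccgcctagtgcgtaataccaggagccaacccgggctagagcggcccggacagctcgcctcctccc
Mrpl57: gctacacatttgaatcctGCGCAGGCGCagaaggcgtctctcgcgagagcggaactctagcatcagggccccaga
Mrps11: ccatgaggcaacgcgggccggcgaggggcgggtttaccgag
Mrps6: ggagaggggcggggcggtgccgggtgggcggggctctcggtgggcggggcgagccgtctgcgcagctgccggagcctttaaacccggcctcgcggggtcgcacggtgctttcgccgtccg

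Genes with and without these letters had medians near 0. The 25 genes with CCGGAAG had a median log2 fold change of -0.05 and the 38 without it 0.04. For the NRF1 letters the medians were 0.00 (11 genes) and 0.03 (52 genes), and for the YY1 letters 0.00 (8 genes) and 0.03 (55 genes). Of the factors themselves, Gabpa, the DNA-binding subunit of GABP, read 7.94, 8.46 and 8.19 on the control arrays and 7.57, 7.51 and 7.47 on the deleted arrays. All 3 Flvcr-deleted arrays lay below the controls, with a log2 fold change of -0.69 (SE 0.194) that did not pass (limma unadjusted p = 0.00315, adjusted p = 0.601). Gabpa had 4 probes, of which only the brightest kept one is given here. Its partner Gabpb1 stood at -0.19 (SE 0.194), Nrf1 at -0.03 (SE 0.115), Esrra, a nuclear receptor for mitochondrial genes, at 0.19 (SE 0.145), and Yy1 was detected on 0 arrays. Myc, a growth regulator, stood at 0.43 (SE 0.316). Of 9 such regulators listed 7 were tested and 0 passed.

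Some of these genes share a promoter region with a neighbour. How common this is among all tested genes was not counted. In RefSeq, 22 of the 63 genes had a start on the opposite strand within 500 bases, running the other way, which made 21 distinct pairs, and both genes were tested in 17. The signs of the log2 fold changes matched in 6 of the 17. Mrps11 and Mrpl46, 1 gene of each subunit with starts 42 bases apart, stood at -0.17 (SE 0.137) and -0.12 (SE 0.118). Mrpl43 stood at -0.11 and Twnk, the mitochondrial DNA helicase 116 bases away, at 0.25 (SE 0.206). Mrps12 stood at 0.02 and Sars2, the mitochondrial seryl-tRNA synthetase, at -0.09 (SE 0.236). Mrpl40 stood at 0.21 and the histone chaperone gene Hira at -0.26 (SE 0.188). None of these partners passed.

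The lists of other mitochondrial translation genes also had medians near 0. Of 5 mitoribosomal proteins that carry other symbols 4 were tested, and 0 passed. Among these Dap3, a GTP-binding protein of the small subunit, stood at 0.04 (SE 0.115), Chchd1 at 0.04 (SE 0.116), Ptcd3, which binds the small subunit RNA, at 0.12 (SE 0.197) and Gadd45gip1, detected on 3 arrays, at -0.38 (SE 0.312). Of 26 assembly and RNA-modifying factors 22 were tested, 16 higher and 6 lower with a median of 0.08, and 0 passed. Those with the smallest p were Ybey, an RNA endonuclease (-0.55, SE 0.310), and the helicase Ddx28 (-0.35, SE 0.202). All 16 translation factors were tested, with a median of 0.04, and 0 passed. Taco1, an activator of cytochrome oxidase subunit translation, stood at 0.68 (SE 0.282, limma unadjusted p = 0.0301), but its probe was detected on 1 control array and 3 Flvcr-deleted arrays and so lay near background. The recycling factor Mrrf stood at -0.33 (SE 0.217).

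Of 20 mitochondrial tRNA synthetase and amidotransferase genes 16 were tested, 6 higher and 10 lower with a median of -0.03, and 0 passed. Fars2, the phenylalanyl enzyme, stood at 0.27 (SE 0.134) and Qrsl1, an amidotransferase subunit, at 0.24 (SE 0.188). Of 16 genes of mitochondrial DNA and RNA handling 14 were tested with a median of 0.04, and 0 passed, with Hsd17b10, a subunit of the RNase that frees mitochondrial tRNAs, at 0.19 (SE 0.114). At an unadjusted p under 0.05, these 6 lists held 2 of 79 tested genes in limma's fit (2.53%, against 4.63% of all genes), Taco1 and Gabpa. No tested probe carried the name of a gene encoded in mitochondrial DNA.

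Cytosolic ribosomal protein genes served as the nearest comparison. Of 53 tested, 31 read higher. The median of their log2 fold changes was 0.02, with 0 past an adjusted p of 0.05, and 3 were higher at an unadjusted p under 0.05 (5.66%, against 2.6% of all genes) in limma's fit, with 0 lower. Rps24 stood at 0.26 (SE 0.0790) and Rpl23 at 0.23 (SE 0.0910). The middle 50% of mitochondrial large subunit genes lay between -0.11 and 0.09, of small subunit genes between -0.09 and 0.11 and of cytosolic ribosomal genes between -0.04 and 0.09. The cytosolic probes were far brighter, with a mean log2 signal of 13.37 to 13.46 per array, against 10.38 to 10.54 for the 71 genes. The part of brightness in their narrower range was not tested. The median SD between replicates was 0.18 for the 71 genes and 0.21 for all genes. At like brightness the 71 genes were not the tighter ones in the brighter deciles, which held most of them. In the second brightest decile of all genes, which held 29 of the 71, the median SD was 0.167 for them and 0.156 for all genes. In deciles 2 to 4 from the dimmest, which held few of them, they were tighter. Decile 3, with 3 of them, had 0.124 for them and 0.284 for all genes.

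**Figure D5:**
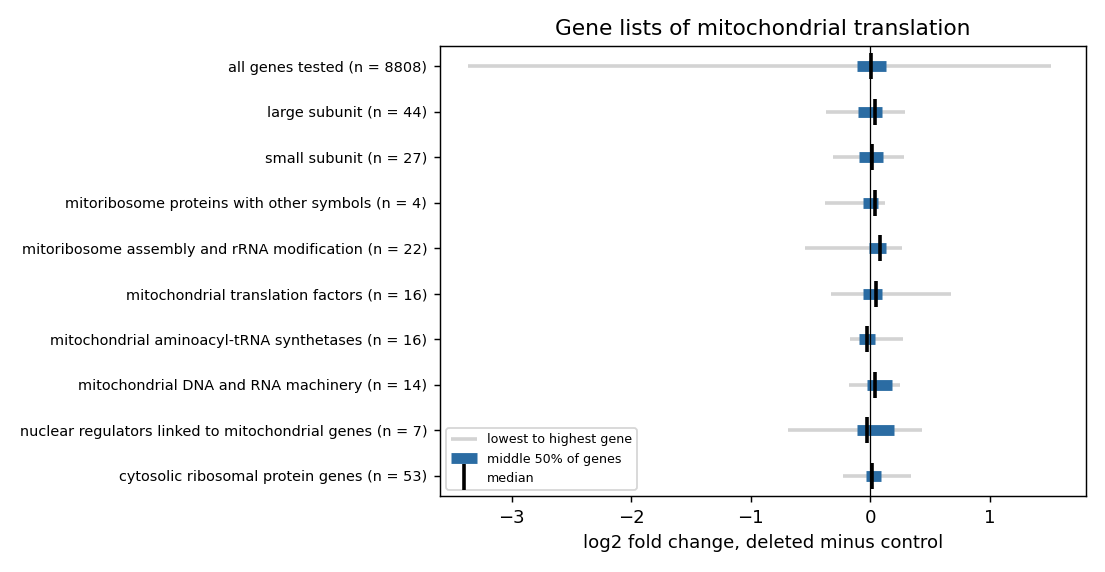
Log2 fold changes by gene list (horizontal axis), with black marks for the median, blue bars for the middle 50% of genes and grey lines from the lowest to the highest gene. The medians of all lists shown lie between -0.03 and 0.08, and the line of all genes runs from -3.36 to 1.51.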

How the data were processed

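Total RNA of 6 samples of sorted double-positive thymocytes was measured on Illumina bead arrays after biotin labelling. The deposited intensities are linear and not scaled across arrays, with a detection p-value per probe and array, per the file headers. A second deposited table is on a log2 scale and matched quantile-normalized intensities, put on that scale, to within 5e-09. The tool lumi is named in the submitters' processing notes.

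Probes were named by the platform annotation, with symbols updated through RefSeq (GRCm38.p6). The 132 probes were matched by gene identifier (108), accession (10), current symbol (11) or synonym (3). Background correction, quantile normalization and the log2 step used neqc of limma 3.58.1 (R 4.3.3, offset 16, negative controls inferred from detection p-values). Groups came from sample titles. The fit used lmFit and eBayes (variance trend, 2-sided) on all 15448 kept probes, with Benjamini-Hochberg adjustment across them. The offset makes differences of dim probes too small. Lists of genes are described by counts and medians.

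Named were genes at an unadjusted p under 0.05, and per subunit the 4 highest and 4 lowest estimates and the 4 brightest and 2 dimmest probes, then Mrpl12 and the Mrps18 paralogs, and from other lists the 2 with the smallest p. Other genes named (by non-overlap, promoter pair, site or regulator) were chosen after their values were seen. The members and lists were chosen with earlier results of these data known. The fit was also run on simulated arrays with added differences of 1.5-fold or more, beyond every estimate of the 71 genes. That run does not gauge how well smaller differences are found. Alternatives changed background correction, normalization, filter, variance model, weights, replicate block, probe choice and arrays. The number of arrays limits the precision. Figures were drawn with matplotlib 3.10.9.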

Additional observations from a re-analysis of the deposited data

How the results depend on the processing

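Over the 15 alternatives to the fit, 0 of the 71 genes passed an adjusted p of 0.05 in limma. The lowest adjusted p was 0.235, for Mrps6 with array weights. The sign of the log2 fold change was the same under all 15 alternatives for 30 genes and turned under at least 1 for 41. At an unadjusted p under 0.05 there was 1 gene, against 0 when the variance trend was dropped and 6 when arrays were weighted (Mrpl1, Mrpl40, Mrps22, Mrps23, Mrps5 and Mrps6), a share of 8.45% against 11.2% of all genes. Leaving out 1 array gave between 0 and 4 genes, the 4 without control replicate 3 (Mrpl1, Mrpl24, Mrps5 and Mrps6, 5.63% against 7.61% of all genes) and 0 without control replicate 1 or 2 or Flvcr-deleted replicate 1 or 3. The median log2 fold change of the 71 genes lay between -0.03 (without control replicate 2) and 0.08 (without control replicate 3). Large minus small subunit, from the medians of the log2 fold changes, was 0.03. With 1 array left out it lay between -0.02518 (without control replicate 2) and 0.06008 (without control replicate 3). Taken on each array and averaged, large minus small was -0.005 on control and -0.02 on deleted arrays, so this measure pointed the other way. The count of genes whose groups did not overlap was 4, and between 7 and 21 with 1 array left out, since fewer arrays overlap less often. It was 7 without control replicate 1 (9.86%, against 15.6% of all genes) and 21 without control replicate 3 (29.6%, against 23.2%), the 1 array whose omission put the share above that of all genes. With the replicate number as a replicate block 0 members passed and 1 stood at an unadjusted p under 0.05, and 12 genes passed in all against 13. The deviations of same-numbered arrays correlated at -0.08, 0.09 and 0.18, and 3 of 6 arrays correlated best with their own number, and the numbers were not taken as pairs. Counting Mrps18a and Mrps30 in the large subunit was added after the data were seen. Probe brightness over background limits the dim genes, Mrpl51, Mrpl39 and Mrpl57 among them.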
